A study of Homo sapiens with 24 samples.

Results

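The transcripts of 5 proteasome genes, PSMA5, PSMB2, PSMB4, PSMD4 and PSMD10, were followed across all conditions of the study. They were taken as the rows of the deposited expression table whose gene symbol is one of these names, which gave 5 of 11579 rows. In short, the 5 transcripts had a small spread over the 24 samples. No contrast between transfection states passed the test for any of them, but only 0.0335% of all tests in these contrasts passed. With H2O2 PSMA5 was 13.0% higher on average over the 4 transfection states, with a log2 response of -0.042 in EVI1-AQA cells. It was the only mean H2O2 response of the 5 that was called, while 16.5% of all rows were. That call was lost with the batch in the fit, where 0 of the 5 and 12.3% of all rows were called. It was also lost in some fits without the batch, such as those that left out any one replicate. A list of 51 proteasome genes had 12 rows in the table, and these 5 are the ones on chromosomes 1 and X, where all 5 listed genes had a row. On chromosome 1, 50.7% of protein-coding genes and 2.39% of other genes had a row, and on chromosome X 43.1% and 2.46%. On chromosomes 2 to 22 the shares were 19.3% and 16.4%, so the row labels there did not favour expressed coding genes, and the other 7 proteasome rows were not relied on.

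The cells were HEK293, a long-established line derived from human embryonic kidney, and formed 8 groups with 3 samples each. Cells were left untransfected or were transiently transfected with one of 3 Flag plasmids driven by a CMV promoter, namely the empty vector, wild type EVI1 (EVI1-WT), or EVI1-AQA, in which the carboxy-terminal SQS site of this transcription factor is altered so that it cannot be phosphorylated. Each of these 4 states was sampled without treatment and after 8 h of H2O2 at 150 μM, an oxidant that damages DNA. The labels give each sample a batch number, and each of the 3 batches holds 1 sample of each of the 8 groups. The protocol in the labels also describes luciferase reporter plasmids for transfected cells without saying whether the sequenced cultures carried them. Transient transfection leaves a culture in which not every cell carries the plasmid, and in such bulk RNA fewer responding cells and less RNA per cell cannot be told apart. The transfected gene itself was not analysed here.

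All values below are log2 expression values as the authors deposited them, from sequencing of transcript 3′ ends, with an FPKM cut-off of 10. In every row the mean over the 8 samples of a batch is 0, with a largest departure of 4.5e-06. A value therefore says how far a sample lies from the mean of its own batch, and neither the absolute level of a transcript nor the identity of the cell line by its markers can be read from the table. Depth per sample is unknown for the same reason, so the 3 samples per group set the precision. Nothing in the labels says whether the batches were separate cultures, so p-values measure the spread between these samples. The SD over all rows lay between 0.245 and 0.421 among the 24 libraries and was highest, at 0.421, in untreated untransfected replicates 2 and 3. Values of the 3 samples of a group are given in the order of batches 1, 2 and 3.

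The proteasome is the protease complex that degrades proteins tagged with ubiquitin. Its 20S core is a barrel of alpha and beta rings with the catalytic sites inside, and the 19S regulatory particle that caps it recognises, unfolds and feeds in the tagged protein. Oxidized proteins are degraded by it, and its genes are known to be transcribed in concert, in part through the factor NFE2L1 acting at antioxidant response elements. PSMA5 is an alpha subunit of the core, and PSMB2 and PSMB4 are structural beta subunits, without a catalytic site of their own. PSMD4 (Rpn10) is a ubiquitin receptor of the 19S particle, and PSMD10 (gankyrin) is a chaperone that assists its assembly and is not a subunit of the finished complex.

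In the GENCODE annotation of GRCh38, PSMA5 lies at chr1:109399042-109426448 on the minus strand, PSMB2 at chr1:35599541-35641526 on the minus strand and PSMB4 at chr1:151399560-151401937 on the plus strand. PSMD4, at chr1:151254709-151267479 on the plus strand, ends 132080 bases before PSMB4 begins. PSMD10 lies at chrX:108084207-108091549 on the minus strand. No other annotated gene overlaps any of the 5. Pseudogenes named after PSMA5 (1), PSMD4 (1) and PSMD10 (3) have no row of their own, and how the authors' counting treated reads shared with them is not given in the sources used here.

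Promoter sequences, from 250 bases before to 50 bases after the start of the gene, were found in RefSeq (GRCh38.p14) for 4 of the 5 genes. Those of PSMA5, the only member with a response called in the fit without the batch, and PSMB4, the steadiest member, are shown. They run 5′ to 3′ on the strand of the gene. Capitals mark matches on either strand to CCAAT, a box bound by the factor NF-Y, and to CGGAAG, a site read by ETS factors. The PSMA5 window is chr1:109426399-109426698 on the minus strand and the PSMB4 window is chr1:151399323-151399622 on the plus strand.
PSMA5: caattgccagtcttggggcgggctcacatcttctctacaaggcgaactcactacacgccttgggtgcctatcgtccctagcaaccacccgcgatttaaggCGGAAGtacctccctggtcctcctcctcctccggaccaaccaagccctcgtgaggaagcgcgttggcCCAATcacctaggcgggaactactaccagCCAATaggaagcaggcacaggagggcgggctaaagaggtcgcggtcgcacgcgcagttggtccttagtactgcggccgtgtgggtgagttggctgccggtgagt
PSMB4: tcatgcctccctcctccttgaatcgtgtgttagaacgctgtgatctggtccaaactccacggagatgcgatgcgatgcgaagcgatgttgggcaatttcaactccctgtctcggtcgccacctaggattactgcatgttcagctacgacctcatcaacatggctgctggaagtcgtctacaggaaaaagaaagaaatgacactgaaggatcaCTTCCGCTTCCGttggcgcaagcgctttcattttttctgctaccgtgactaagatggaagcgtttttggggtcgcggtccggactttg
In PSMA5 a CCAAT match begins 83 bases and another 54 bases before the start site, and a CGGAAG match begins 150 bases before it. PSMB4 holds its pair of CGGAAG matches on the opposite strand, beginning 38 and 32 bases before the start. CCAAT was found in the windows of 3 of the 4 genes (PSMA5, PSMB2 and PSMD10) and in 34.6% of 34796 RefSeq promoters of this length, and CGGAAG in 2 of the 4 (PSMA5 and PSMB4) and in 19.4%. The core of the antioxidant response element, searched as TGACNNNGC on both strands, is in 0 of the 4 windows and in 13.3% of all promoters, and TATAAA is in 0 of 4 and in 11.6%. These letters describe the windows only and locate no bound site.

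The question behind the treatment was how cells respond to genotoxic stress, and behind the plasmids how EVI1 and its phosphorylation site alter that response. PSMA5, the alpha subunit, had the clearest pattern. In untransfected cells its untreated values were -0.027, -0.030 and -0.055 and its values with H2O2 0.18, 0.18 and 0.23. With empty vector they were -0.25, -0.14 and -0.18 untreated and 0.0050, 0.043 and -0.071 with H2O2. With EVI1-WT they were -0.29, -0.24 and -0.074 untreated and 0.053, 0.031 and 0.32 with H2O2. In each of these 3 states all samples with H2O2 lay above all untreated samples. With EVI1-AQA the untreated values were 0.21, 0.22 and -0.21 and those with H2O2 0.12, -0.064 and 0.036, so that the treated samples fell inside the range of the untreated ones. Replicate 3 of untreated EVI1-AQA stood apart from the other two, which lay above 0.

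**Figure D1:**
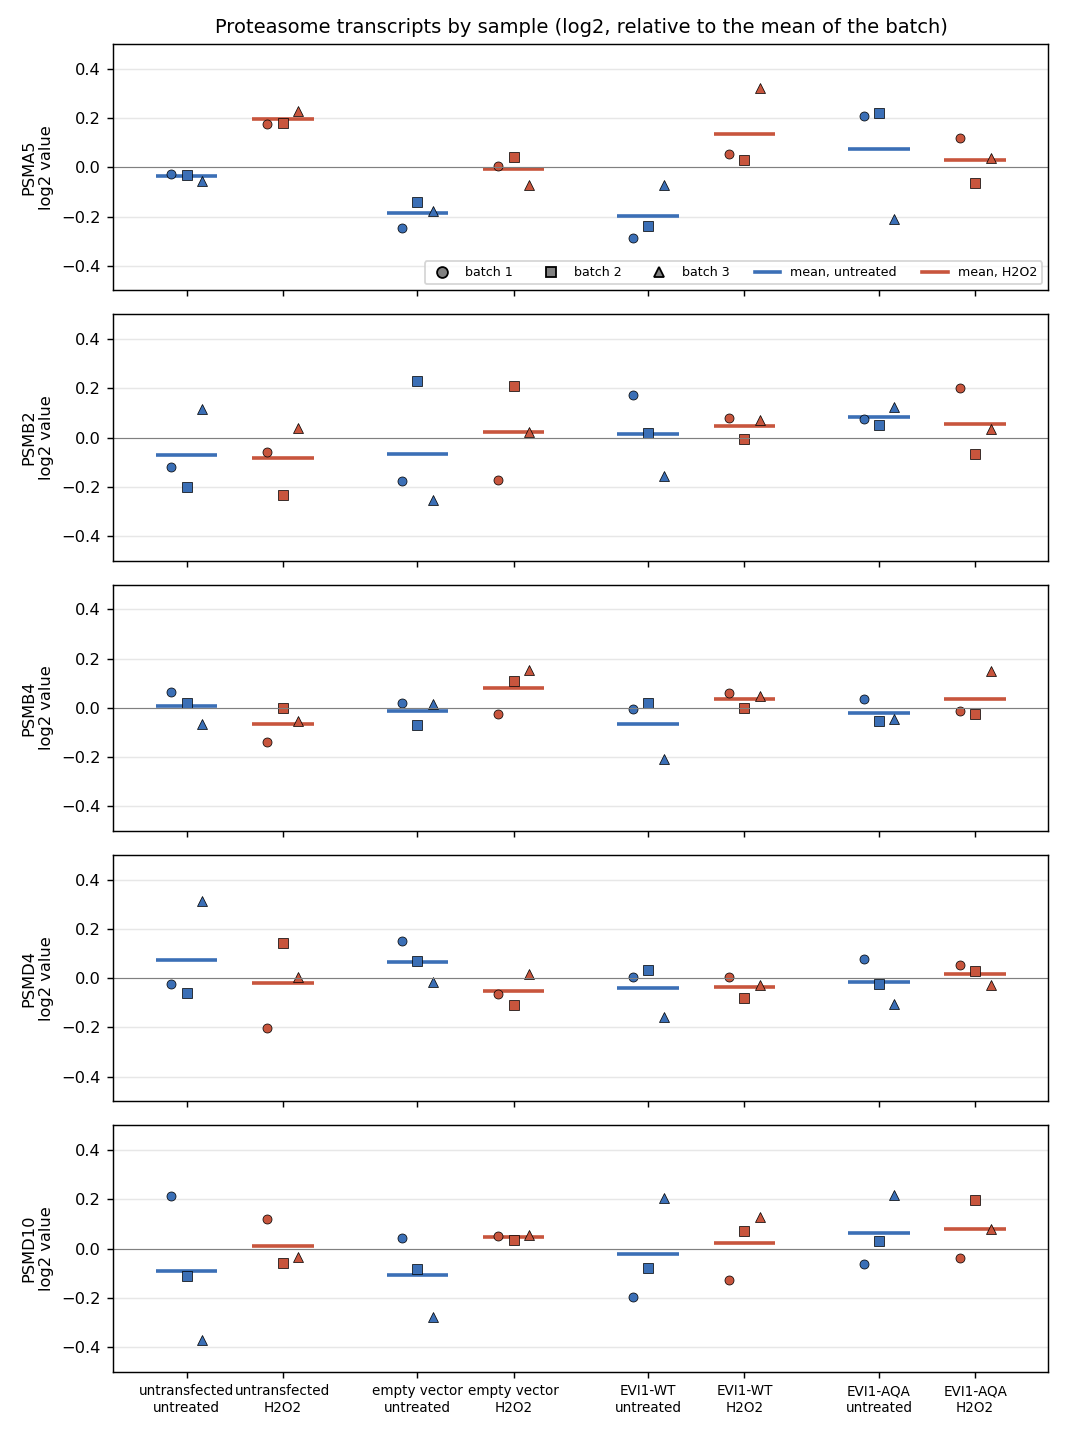
Log2 value of each sample (vertical axis, relative to the mean of its batch) for the 5 proteasome transcripts in the 8 groups. Points are samples, with a shape for each batch, and horizontal lines are means of 3 samples. PSMA5 is higher with H2O2 (red) than without (blue) in every batch except batches 1 and 2 of EVI1-AQA, while in the other panels the colours overlap in all 4 transfection states.

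Averaged over the 4 states, PSMA5 rose with H2O2 by 0.18 on the log2 scale (SE 0.060; limma, Benjamini-Hochberg adjusted p over all rows = 0.0471), and it was higher in 10 of the 12 pairs of samples that share a batch and a transfection state. With the batch as a replicate block in the fit the difference was the same 0.18 and its adjusted p was 0.0846, with a 95% interval of the change from 2.75% to 24.2%. The call was also lost without any one of the 3 replicates, with a difference of 0.14 to 0.22 and adjusted p from 0.141 to 0.242. Each call on PSMA5 below is given for the fit without the block, and the block altered none of them. By state, the response was 0.23 in untransfected cells (adjusted p = 0.362), 0.18 with empty vector (adjusted p = 0.455), 0.33 with EVI1-WT (adjusted p = 0.193) and -0.042 with EVI1-AQA (adjusted p = 0.891). None of the 4 passed on its own, each with an SE of 0.12. The 3 pairs with EVI1-AQA did not share a direction, at -0.087, -0.28 and 0.24, and leaving out replicate 2 gave a response of 0.079 in this state. The response with EVI1-AQA was lower than that with EVI1-WT in all 3 batches, with a mean difference of -0.38 (SE 0.17), which had an unadjusted p of 0.0363 and an adjusted p of 0.478 in limma. With the block the unadjusted p was 0.0557 and the 95% interval ran from -0.76 to 0.010. Without the block, 1133 of the 11579 rows had an unadjusted p under 0.05 for this difference. In size it was the largest of the 20 differences between responses tested in the 5 members.

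The share of rows that passed sets the scale for these calls. Of all rows, 16.5% were called for the mean H2O2 response, 8.9% as higher with H2O2, and 12.3% with the replicate block. Against this, 1 of the 5 proteasome transcripts was called, and 0 of 5 with the block. In 8.64% of all rows every H2O2 sample of untransfected cells lay above every untreated one, and in 12.6%, 11% and 11% with empty vector, EVI1-WT and EVI1-AQA. PSMA5 showed such a separation in 3 of the 4 states, and 2.81% of all rows showed it in at least 3. The other 4 members showed it in 0 states. With 3 against 3 samples a single state cannot reach a two-sided exact permutation p below 0.1.

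The order of the PSMA5 group means began with untreated EVI1-WT at -0.20 ± 0.11 (SD, n = 3) and untreated empty vector at -0.19 ± 0.054, followed by untreated untransfected cells at -0.037 ± 0.015. Empty vector with H2O2 stood at -0.0079 ± 0.058, EVI1-AQA with H2O2 at 0.031 ± 0.092 and untreated EVI1-AQA at 0.073 ± 0.24. EVI1-WT with H2O2 at 0.14 ± 0.16 and untransfected cells with H2O2 at 0.19 ± 0.029 ended it. The step between any group and the next was at most 0.15. This largest step, between untreated empty vector and untreated untransfected cells, missed the threshold (adjusted p = 0.583 in limma). A test of any difference across the 8 groups gave PSMA5 an adjusted p of 0.104 in limma (unadjusted p = 0.0323, the only one of the 5 under 0.05, and 0.0686 with the block) and called 0 of the 5 members, against 18.4% of all rows.

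**Figure D2:**
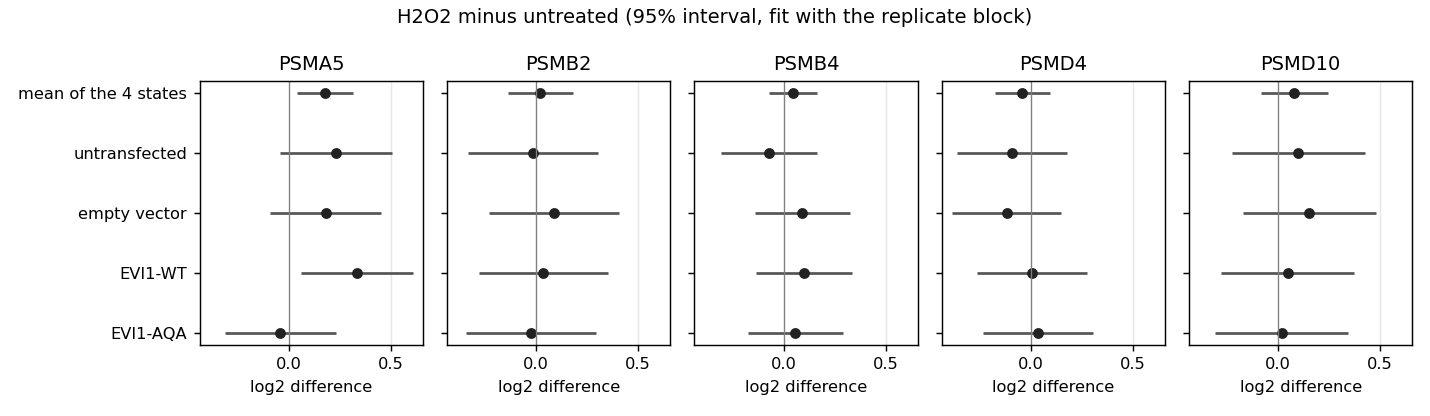
Difference between H2O2 and untreated samples on the log2 scale (horizontal axis) for each proteasome transcript, as the mean over the 4 transfection states and in each state. Points are limma estimates and bars 95% intervals, not adjusted for the number of tests, from the fit with the replicate block. The bar of PSMA5 lies above 0 for the mean and for EVI1-WT, where the difference is 0.33, and every bar of the other 4 transcripts crosses 0.

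Neither beta subunit had an H2O2 response that passed the test. PSMB2 read -0.12, -0.20 and 0.12 in untreated and -0.058, -0.23 and 0.038 in treated untransfected cells. With empty vector it read -0.17, 0.23 and -0.25 untreated and -0.17, 0.21 and 0.023 with H2O2. In both states the highest and the lowest value came from batches 2 and 3, and treated and untreated samples overlapped. With EVI1-WT the values were 0.17, 0.020 and -0.15 untreated and 0.078, -0.0069 and 0.072 with H2O2, and with EVI1-AQA they were 0.074, 0.052 and 0.12 untreated and 0.20, -0.067 and 0.035 with H2O2. The mean response of PSMB2 was 0.020 (SE 0.070, adjusted p = 0.875), with 5 of 12 pairs higher and a 95% interval with the block from -9.18% to 13.2%. Its sign turned, to -0.012, when replicate 3 was left out.

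PSMB4, the other beta subunit, was the steadiest of the 5. Untransfected cells read 0.065, 0.022 and -0.066 untreated and -0.14, 0.0012 and -0.053 with H2O2. With empty vector the values were 0.020, -0.071 and 0.017 untreated and -0.024, 0.11 and 0.15 with H2O2. EVI1-WT cells read -0.0045, 0.019 and -0.21 untreated and 0.062, -0.0015 and 0.049 with H2O2. Untreated EVI1-WT replicate 3 was the lowest of all PSMB4 samples, and the treated and untreated samples overlapped in each state. EVI1-AQA cells read 0.035, -0.053 and -0.046 untreated and -0.015, -0.026 and 0.15 with H2O2. The mean response of PSMB4 was 0.045 (SE 0.050, adjusted p = 0.579), with 7 of 12 pairs higher and an interval with the block from -4.88% to 11.9%. Without replicate 3 it was -0.0077.

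The regulatory particle was represented by PSMD4 and by its assembly chaperone PSMD10. PSMD4 read -0.024, -0.061 and 0.31 in untreated and -0.20, 0.14 and 0.0037 in treated untransfected cells, and 0.15, 0.070 and -0.017 untreated and -0.064, -0.11 and 0.017 treated with empty vector. The untransfected cells held both the highest and the lowest of its 24 values. With EVI1-WT it read 0.0060, 0.033 and -0.16 untreated and 0.0040, -0.079 and -0.026 with H2O2, and with EVI1-AQA 0.077, -0.022 and -0.11 untreated and 0.052, 0.029 and -0.026 with H2O2. Its mean response was -0.043 (SE 0.058, adjusted p = 0.655), the only one of the 5 below 0, with 5 of 12 pairs higher and an interval with the block from -11.6% to 6.52%.

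PSMD10 read 0.21, -0.11 and -0.37 in untreated and 0.12, -0.057 and -0.036 in treated untransfected cells. With empty vector the untreated values were 0.043, -0.084 and -0.28 and the treated ones 0.050, 0.033 and 0.056, so the treated samples lay close together and above 2 of the 3 untreated ones. With EVI1-WT it read -0.20, -0.078 and 0.21 untreated and -0.13, 0.072 and 0.13 with H2O2, and with EVI1-AQA -0.062, 0.029 and 0.22 untreated and -0.040, 0.20 and 0.079 with H2O2. The batches ordered these states in opposite ways in untreated cells: in batch 1 untransfected and empty vector cells were above both EVI1 states, and in batches 2 and 3 untransfected and empty vector cells were below both. The mean response of PSMD10 was 0.079 (SE 0.072, adjusted p = 0.491), with 9 of 12 pairs higher and an interval with the block from -5.69% to 18.2%. The median response of the 5 members was 0.045 and that of all rows 0.0016.

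The plasmids made no difference that passed the test. Over 8 transfection contrasts, each of the 5 members was tested once, and 0 of these 40 tests were called, with or without the block. Few rows of any kind were: over the 8 contrasts pooled 0.0335% of all tests passed, with 0 to 17 of the 11579 rows in a contrast, so 0 calls is no result about the proteasome transcripts. At an unadjusted p under 0.05 there were 2, both in PSMA5, and 0 with the block (unadjusted p = 0.0611 and 0.0508 in limma). Of all tests in these contrasts 9.58% lay under 0.05 without the block and 7.42% with it. PSMA5 was higher in untreated EVI1-AQA than in untreated empty vector cells by 0.26 (unadjusted p = 0.0405, adjusted p = 0.315 in limma). It was higher than in untreated EVI1-WT cells by 0.27 (unadjusted p = 0.0327, adjusted p = 0.998 in limma). Without the block, 1721 and 552 of the 11579 rows had an unadjusted p under 0.05 for these differences. Both differences share the untreated EVI1-AQA samples, and in both batch 3 went the opposite way to batches 1 and 2. In the H2O2-treated cells the corresponding PSMA5 differences were 0.039 and -0.10. PSMA5 was lower with empty vector than without transfection in 3 of 3 batches in either treatment, with mean differences of -0.15 untreated (adjusted p = 0.583) and -0.20 with H2O2 (adjusted p = 0.537). Over the 40 tests the bound of a 95% interval farthest from 0, with the block, was 0.55, in PSMA5. The 20 tests of a response within 1 state and the 20 tests of a difference between responses likewise gave 0 calls. Their lowest adjusted p in limma was 0.193 and 0.478. At an unadjusted p under 0.05 there was 1 test in each set, both in PSMA5, while 16.3% and 7.96% of all tests in these contrasts lay under 0.05. The pooled share of all rows called was 1.22% within states and 0.101% for differences between responses, so here too 0 calls lay near the background.

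**Figure D3:**
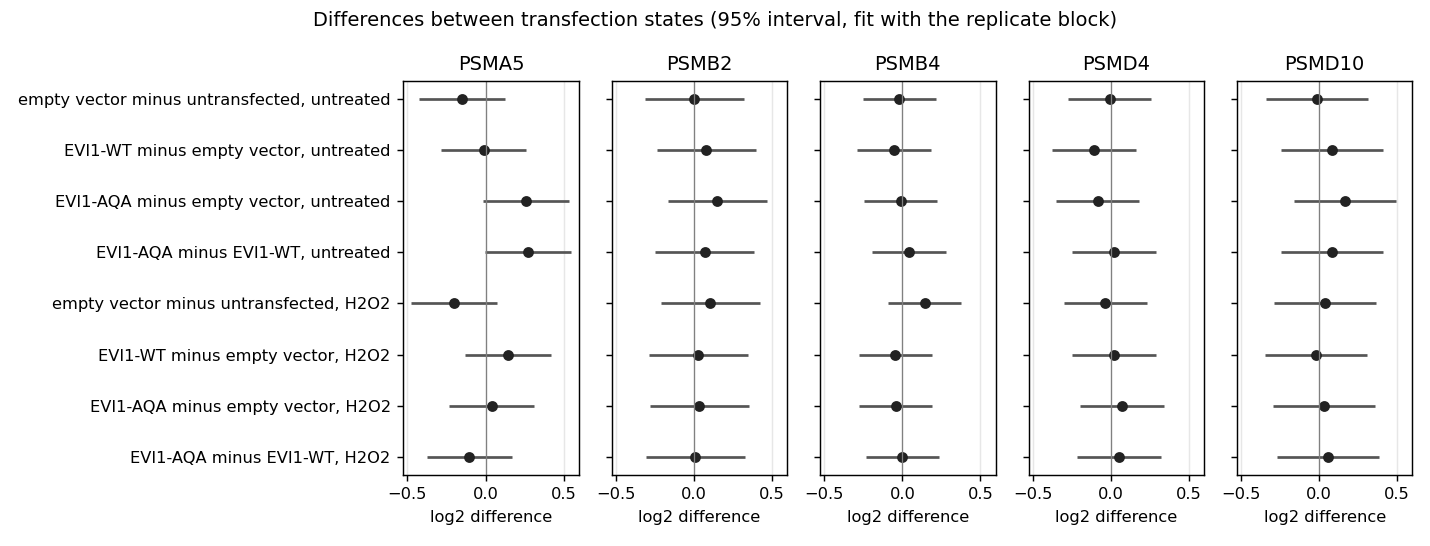
Differences between transfection states on the log2 scale (horizontal axis), in untreated and in H2O2-treated cells, for each proteasome transcript. Points are limma estimates and bars unadjusted 95% intervals from the fit with the replicate block. All 40 bars cross 0, and the largest estimate is the 0.27 of PSMA5 for untreated EVI1-AQA minus EVI1-WT.

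The spread of the 5 transcripts over the 24 samples was small. PSMB4 had an SD of 0.0815, the 5th smallest of all 11579 rows and the smallest of the 1541 rows of chromosomes 1 and X. PSMD4, with an SD of 0.106, ranked 69 of all rows, PSMB2, with 0.145, ranked 623 and PSMD10, with 0.152, ranked 791. PSMA5 had the widest spread of the 5, 0.167, and still ranked 1310. The median SD was 0.267 over all rows and 0.261 over the rows of chromosomes 1 and X. PSMB2 and PSMB4 are known from surveys of human tissues as candidate reference genes for steady expression. The absolute level is not in the table, and noise of counting falls with it, so how much of these small spreads goes with level was not tested.

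**Figure D4:**
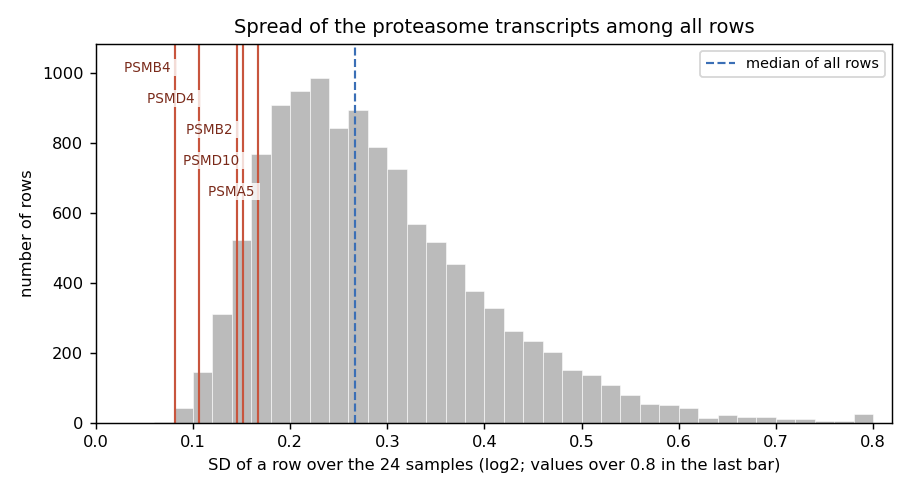
Histogram of the SD of each of the 11579 rows over the 24 samples, on the log2 scale, with the number of rows on the vertical axis. Solid lines mark the 5 proteasome transcripts, from 0.0815 for PSMB4 to 0.167 for PSMA5, and the dashed line the median of all rows at 0.267, to the right of all 5.

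No pair of the 5 transcripts had a high positive correlation across samples. Pearson correlations over the 24 samples, which share batches and their centring, lay between -0.59 and 0.17 over the 10 pairs of members, with a median of 0.036. The lowest was that of PSMD4 with PSMD10. It was -0.40 without the untreated untransfected library of replicate 3, in which PSMD4 was at 0.31 and PSMD10 at -0.37, and lay between -0.66 and -0.55 when any other single library was left out. That library also had one of the highest SDs over all rows, and the part of this in the correlation was not tested. The SD within groups of PSMB2 (0.168), PSMB4 (0.0840), PSMD4 (0.123) and PSMD10 (0.176) was near or above their SD over the 24 samples. Low correlations between such rows say little about joint regulation, which was not tested.

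Among 1391 other rows of chromosomes 1 and X, those most like each member were as follows, as a description over 24 samples. The patterns nearest to PSMA5 were those of KTI12 (r = 0.69), SLC25A33 (0.69) and DEGS1 (0.68), and the most opposite that of AHCYL1 (-0.76). PSMB2 was nearest to SLC39A1 (0.81), a zinc transporter, EFNB1 (0.71) and POU2F1 (0.70), and farthest from WARS2 (-0.73). PSMB4 was nearest to MAD2L2 (0.77), PEX19 (0.73) and PQBP1 (0.71) and farthest from CDC7 (-0.57). None of the 3 core subunits had another of the 5 members among these rows. PSMD4 was nearest to ENO1 (0.74), a glycolytic enzyme, HAUS7 (0.73) and EIF2B3 (0.73) and farthest from CDC42 (-0.73). PSMD10 was nearest to SLC25A5 (0.76) and TOMM20 (0.72), both mitochondrial membrane proteins, and RAB4A (0.70), and farthest from HAUS7 (-0.75), a row among the nearest to PSMD4.

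The ubiquitin system that feeds the proteasome was read from a list of 59 genes of chromosomes 1 and X, of which 54 had a row. Averaged over the 4 states, 10 of the 54 rose with H2O2, 5 fell and 39 did not pass, a share of 27.8% against 16.5% of the 1541 rows of these chromosomes. With the replicate block 10 rose and 4 fell, against 13.5% of those rows. With replicate 1 or 2 left out 4 of the 54 passed (7.41%), against 5.19% and 5.13% of those rows, and without replicate 3 it was 3 of 54 (5.56%), against 10.5%, so the share of the list was below that of the rows without replicate 3. The genes that moved were spread over the roles, and limma called 0 of the 54 in each of the other 16 contrasts, where at most 2.14% of the rows of these chromosomes were called. In those contrasts 0 to 16 of the 54 had an unadjusted p under 0.05, with 3.44% to 18.3% of the rows of these chromosomes. The 16 of 54 (29.6%) were for H2O2 in untransfected cells, where the share of the rows was 15.9%. For H2O2 it was 15 of 54 (27.8%) with empty vector, 9 (16.7%) with EVI1-WT and 4 (7.41%) with EVI1-AQA. The shares of the rows there were 18.3%, 15.6% and 17.1%.

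Adjusted p-values of single genes here and in the next paragraph are from the limma fit without the block. With the block they were higher, and only UBE4B changed side of the threshold. For the other genes named as passing they then ran from 0.0075 for UBQLN2 to 0.0462 for OTUD3. Of the enzymes that start the chain, UBA1, the main ubiquitin-activating enzyme, differed by -0.044 (adjusted p = 0.683). Among the 4 conjugating enzymes UBE2Q1 rose by 0.18 (adjusted p = 0.0158), while UBE2A at 0.19 (adjusted p = 0.0571), UBE2J2 at 0.13 and UBE2T at 0.065 did not pass. Of 33 ligases and ligase subunits 5 rose and 3 fell without the block (24.2%, against 16.5% of the rows of chromosomes 1 and X). With the block 5 rose and 2 fell, and UBE4B, named after its values were seen, no longer passed. The 4 with the lowest p were HUWE1, a large HECT-type ligase, which fell by 0.33 (adjusted p = 0.00806), KLHL12, a CUL3 adaptor, which fell by 0.26 (adjusted p = 0.0103), and the RING-family ligases RLIM and RNF19B, which rose by 0.22 (adjusted p = 0.0117) and 0.37 (adjusted p = 0.0146).

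Of 12 deubiquitinases 3 rose and 1 fell, with or without the block (33.3%). Of the rows of chromosomes 1 and X 16.5% passed without the block and 13.5% with it. With a replicate left out only 3 or 4 of the whole list of 54 passed. USP9X fell by 0.25 (adjusted p = 0.00971), while OTUD7B rose by 0.30 (adjusted p = 0.00986), USP1 by 0.24 (adjusted p = 0.0108) and OTUD3 by 0.29 (adjusted p = 0.0251). UCHL5, the deubiquitinase that sits on the 19S particle, differed by 0.12 (adjusted p = 0.413), and it was chosen for its place on the proteasome, outside the naming rule and after its values were seen. Of the 4 shuttles and adaptors UBQLN2, which carries ubiquitinated proteins to the proteasome, rose by 0.32 (adjusted p = 0.0024) and FAF1, a cofactor of the segregase p97, fell by 0.36 (adjusted p = 0.00574). UBAP2L at 0.22 (adjusted p = 0.0503) and UBQLN4 at -0.12 (adjusted p = 0.482) did not pass. The 5 proteasome transcripts, with responses from -0.043 to 0.18, lay inside the range of the 54 genes, from -0.36 to 0.37.

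**Figure D5:**
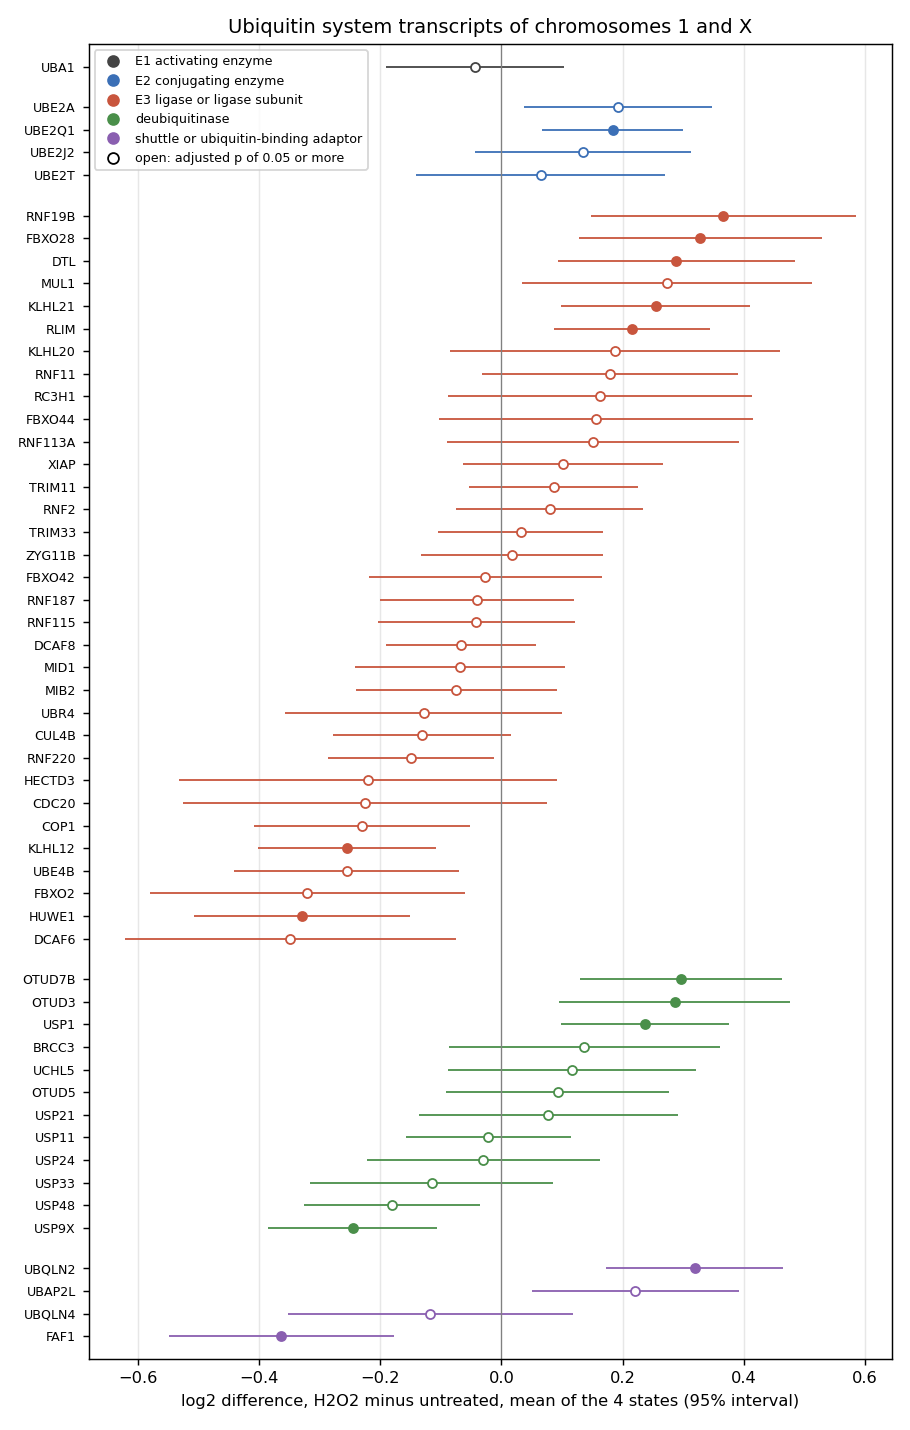
Mean H2O2 response over the 4 transfection states on the log2 scale (horizontal axis) for the 54 ubiquitin system genes of chromosomes 1 and X, grouped and coloured by role. Points are limma estimates, bars unadjusted 95% intervals from the fit with the replicate block, and filled points have an adjusted p under 0.05 in that fit, of which 10 lie above 0 and 4 below.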

How the data were processed

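The log2 expression values were deposited by the authors after their own normalization, and they made them from 75 bp reads of QuantSeq 3′ libraries with Ensembl release 90 of GRCh38 and Qlucore Omics Explorer 3.3. The step that centred rows within batches is not given in the sources used here. Columns of the authors' own comparisons, which hold fold changes and p-values, were not used. All 24 sample columns matched their labels.

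Group means were fitted to all 11579 rows and 24 samples with limma 3.58.1 in R 4.3.3, and p-values (two-sided) were adjusted by Benjamini-Hochberg over all rows, with a threshold of 0.05. Residual degrees of freedom were 16 without a block, 2 of them already spent by the centring, and 14 when the replicate number entered as a block. SEs and p-values of the fit without the block are therefore somewhat too small. The replicate number is the batch in the labels, so it pairs the samples. Deviations of same-numbered samples correlated at -0.140 on average and others at 0.0702, which the centring fixes. Positions come from GENCODE release 44, in which 94.1% of identifiers were found. The named rows are the 5 members, the 3 most and the 1 least correlated rows for each, and up to 4 ubiquitin genes per role lowest by p. The members, lists and rules were chosen with earlier results of these data known. Tables and plots were made in Python 3.11.15 (pandas 2.3.3, matplotlib 3.10.9).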

Additional observations from a re-analysis of the deposited data

How the results depend on the processing

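The alternatives were the replicate block, centring each sample on its median, quantile normalization, leaving out each replicate, a fit without moderation on the samples compared, leaving out 3 libraries with H2O2 (empty vector and EVI1-WT replicate 2, EVI1-AQA replicate 1) that stood apart in another row, and a fit of the rows of chromosomes 1 and X only. With the replicate block 0 members were called for the mean H2O2 response, PSMA5 being at 0.18 (limma, adjusted p = 0.0846), and the block changed no other call on a member. The count was also 0 after centring on the median (PSMA5 0.17, adjusted p = 0.0514), without the 3 libraries (0.17, adjusted p = 0.0989) and without any replicate (0.14 to 0.22, adjusted p from 0.141 to 0.242). PSMA5 was called after quantile normalization (adjusted p = 0.0489), without moderation (adjusted p = 0.0224) and over chromosomes 1 and X only (adjusted p = 0.0421). Values near 0 changed sign: PSMB2 to -0.015 without the 3 libraries and, when a replicate was left out, PSMB2 (-0.012 to 0.054), PSMB4 (-0.0077 to 0.096) and the PSMA5 response with EVI1-AQA (-0.19 to 0.079). The 1914 rows called for the mean response became 581 to 1218 when a replicate was left out and 265 when only rows of chromosomes 1 and X were tested, and the 15 ubiquitin genes became 3 to 4 when a replicate was left out, with fewer samples in each such fit. Otherwise the cause was not tested. The other 265 results under alternatives were differences and counts. The differences kept their direction and their side of the threshold, and the counts of members called kept their main value. The count of all rows called ranged from 1420 to 2226 in these settings, and that of ubiquitin genes from 14 to 19.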
